A study of Mus musculus with 10 samples.

Results

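Ifnar2, Il10rb, Ifnar1 and Ifngr2 are 4 neighbouring receptor genes on mouse chromosome 16 (Mmu16) that lie in the segment duplicated in the Dp1Yey model of Down syndrome. They were chosen by name, and each was represented by 1 probe set annotated to that symbol alone, so the cluster gave 4 of the 143 measured genes of the duplicated interval and 4 of the 19938 genes measured in all. Hippocampal RNA (left and right together) of 5 Dp1Yey males and 5 control male littermates, 16 weeks old, was hybridised to 10 Affymetrix Mouse Gene ST arrays, so that every array stands for a single animal. The Dp1Yey chromosome has a segmental duplication from Lipi to Zbtb21 (Mmu16, 75540514 to 97962627, mm10), so these genes are present in 3 copies, against 2 copies in control mice. The labels give a C57BL/6N background and the study's methods a C57BL/6J background, and this was not settled here. The duplication is present in every cell type, and whole hippocampi were measured, so fewer cells of a type and less RNA per cell cannot be told apart.

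Cytokines of the interferon and interleukin 10 family signal through class II cytokine receptors, each built from a ligand-binding chain and a partner chain. IFNAR1 and IFNAR2 together form the receptor of type I interferons, which are best known as antiviral cytokines and are read by nearly every cell of the brain. IFNGR2 is the partner of IFNGR1 in the interferon gamma receptor, and IL10RB is the shared partner chain of the receptors for interleukin 10, interleukin 22 and the lambda interferons. The chains hold the kinases JAK1, JAK2 and TYK2, which activate STAT transcription factors once a ligand is bound. The human counterparts of these 4 genes also lie side by side, on chromosome 21.

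The genes run in the order Ifnar2 (Entrez 15976, 91372783 to 91405589), Il10rb (Entrez 16155, 91406157 to 91425834), Ifnar1 (Entrez 15975, 91485032 to 91510523) and Ifngr2 (Entrez 15980, 91547059 to 91564007) within 191225 bp of Mmu16 (mm10). Between the end of Ifnar2 and the start of Il10rb lie 567 bp, between Il10rb and Ifnar1 59197 bp, and between Ifnar1 and Ifngr2 36535 bp. The 250 bases before the start that the promoter table uses for Ifnar2, Ifnar1 and Ifngr2 (RefSeq, GRCm38.p6, plus strand, 5′ to 3′) are shown because these genes rose together in the same mice. The Ifnar1 window precedes a transcript start that lies inside the gene as given here, so most of that window falls within the gene. Capitals mark matches on either strand to the gamma-activated site TTCNNNGAA, which STAT factors bind, and to the GC box GGGCGG, which Sp1-type factors bind, and neighbouring GC boxes run together.
Ifnar2, chr16:91372533-91372782: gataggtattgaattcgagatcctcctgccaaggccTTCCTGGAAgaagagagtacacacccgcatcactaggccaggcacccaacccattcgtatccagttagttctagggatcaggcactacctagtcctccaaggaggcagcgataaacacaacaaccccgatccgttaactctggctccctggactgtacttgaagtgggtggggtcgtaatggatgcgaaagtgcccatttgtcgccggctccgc
Ifnar1, chr16:91484965-91485214: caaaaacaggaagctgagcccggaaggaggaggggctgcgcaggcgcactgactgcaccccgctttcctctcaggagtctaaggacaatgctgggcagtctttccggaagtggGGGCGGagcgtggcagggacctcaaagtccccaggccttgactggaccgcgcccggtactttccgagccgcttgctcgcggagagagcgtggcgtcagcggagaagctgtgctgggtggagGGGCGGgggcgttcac
Ifngr2, chr16:91546809-91547058: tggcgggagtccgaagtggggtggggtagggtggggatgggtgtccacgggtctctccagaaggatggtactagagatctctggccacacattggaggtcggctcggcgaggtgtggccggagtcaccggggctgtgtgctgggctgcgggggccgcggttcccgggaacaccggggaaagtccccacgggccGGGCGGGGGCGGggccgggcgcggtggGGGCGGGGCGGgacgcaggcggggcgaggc

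The gamma-activated site occurred once in the Ifnar2 window (1 match) and had 0 matches in the other windows, and 7.02% of 32851 mouse promoter windows of the same length held one. The GC box had 0 matches at Ifnar2, 2 at Ifnar1 and 4 at Ifngr2, against 32.7% of all windows with at least 1. The interferon-stimulated response element core (GAAA, any 2 bases, GAAA, in 2.98% of all windows) and the TATA box TATAAA (in 12.4%) had 0 matches in each of these 3 windows. Guanine and cytosine made up 54% of the Ifnar2 window, 65.6% of the Ifnar1 window and 74% of the Ifngr2 window, beside a median of 52.4% over all windows. The matches describe letters and say nothing of binding. Il10rb was not matched in the promoter table.

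Some facts of the arrays bear on all values. The deposited values are log2 values from robust multi-array average (RMA), and a gene was taken as above background when its mean exceeded 5.45, the 90th percentile of 1015 olfactory receptor genes. The medians of the arrays lay between 6.31 and 6.37 in Dp1Yey and between 6.35 and 6.44 in control mice, and their interquartile ranges between 3.47 and 3.53 in Dp1Yey and between 3.40 and 3.51 in control mice. All 7 markers of hippocampal neurons and all 5 general neuron markers were above background. The 4 choroid plexus markers were each lower at an unadjusted p under 0.05 (0 called after adjustment), with summed linear signals of 1023 to 4488 in Dp1Yey and 1704 to 10240 in control mice. Of 9 measured microglial markers 8 lay above control with 0 called. Their summed signal was 4627 to 4927 in Dp1Yey and 4096 to 4625 in control mice, so that these sums just failed to overlap. The mean log2 values of these markers did overlap, at 8.59 to 8.67 in Dp1Yey and 8.43 to 8.60 in control mice. The largest log2 rises were those of C1qc (0.25), C1qb (0.19) and C1qa (0.16), and Tmem119 stood at -0.00054. Mrc1, Cd163 and Pf4, of the 4 border macrophage markers, and Cd3d, Nkg7 and Gzmb, of the 5 measured lymphocyte markers, were at or below background. The part of these cell types in the results was not tested.

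All 4 receptor genes were upregulated in Dp1Yey hippocampi, by 1.35 to 1.83-fold, and in each gene the lowest Dp1Yey mouse lay above the highest control mouse. Of all 19938 genes, 0.797% were called in either direction and 0.687% higher at an adjusted p under 0.05 (limma, Benjamini-Hochberg over all genes), and in 2.4% all Dp1Yey values lay above all control values. Among the 96 interval genes above background 61.5% were called higher, so a rise by itself was common in the duplicated segment.

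**Figure D1:**
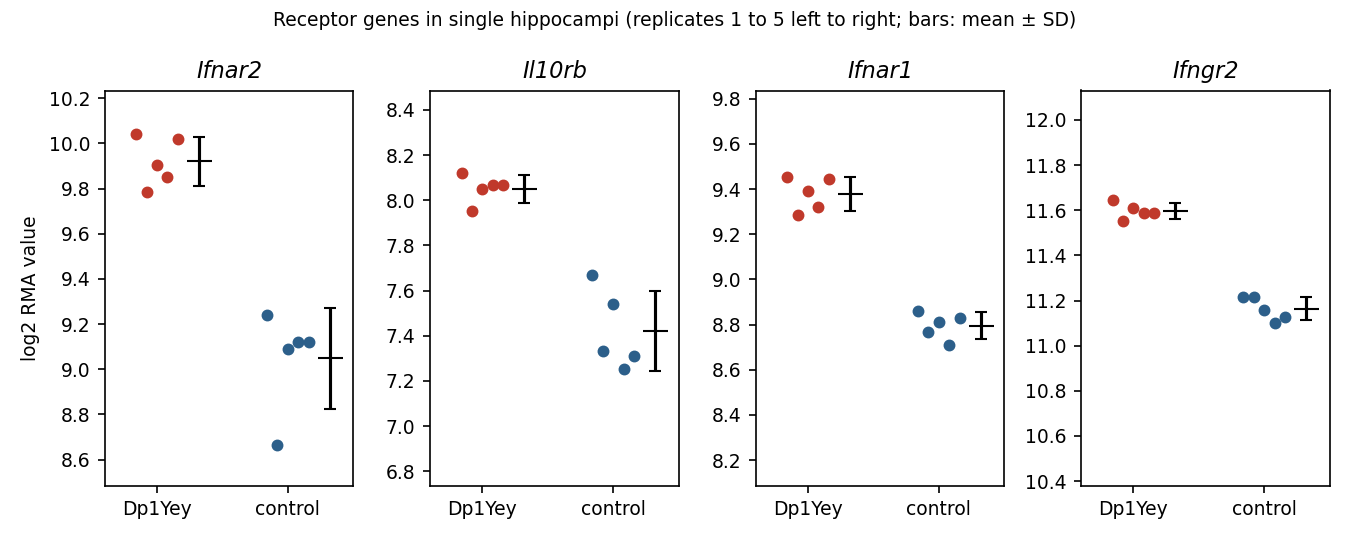
Log2 RMA values of Ifnar2, Il10rb, Ifnar1 and Ifngr2 in each mouse, with Dp1Yey mice in red and control mice in blue, replicates 1 to 5 from left to right and the mean ± SD in black; the axes start at different levels but span the same range. The groups do not overlap in any panel, and control replicate 2 lies apart for Ifnar2 at 8.66.

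Ifnar2, the high-affinity interferon-binding chain, showed the highest fold. The gene gives a membrane-bound and a soluble receptor, which a single probe set value does not separate. Its log2 values were 10.04, 9.79, 9.91, 9.85 and 10.02 in Dp1Yey replicates 1 to 5, against 9.24, 8.66, 9.09, 9.12 and 9.12 in control replicates 1 to 5. Control replicate 2 stood below the other controls, and the remaining control mice lay within 9.09 to 9.24. Dp1Yey mice averaged 9.92 ± 0.11 and control mice 9.05 ± 0.22 (SD over 5 mice each), which is a rise of 1.83-fold (95% CI 1.59 to 2.11, adjusted p = 0.000569, limma). Without control replicate 2 the log2 difference was 0.78, against 0.87 with all arrays, and the gene was still called.

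Ifnar1, the second chain of the same receptor, gave values of 9.45, 9.28, 9.39, 9.32 and 9.44 in Dp1Yey mice, against 8.86, 8.77, 8.81, 8.71 and 8.83 in control mice. Both groups were tight, with Dp1Yey averaging 9.38 ± 0.074 and control 8.80 ± 0.058 (SD over 5 mice each). The rise was 1.497-fold (95% CI 1.40 to 1.597, adjusted p = 5.21e-05, limma), the smallest adjusted p of the cluster.

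Il10rb, the shared chain of the interleukin 10 family receptors, gave values of 8.12, 7.95, 8.05, 8.07 and 8.07 in Dp1Yey mice, against 7.67, 7.33, 7.54, 7.25 and 7.31 in control mice. The control mice were more spread than the Dp1Yey mice, with Dp1Yey averaging 8.05 ± 0.063 and control 7.42 ± 0.18 (SD over 5 mice each). The rise was 1.55-fold (95% CI 1.39 to 1.73, adjusted p = 0.000995, limma).

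Ifngr2, the signalling partner chain of the interferon gamma receptor, gave values of 11.64, 11.55, 11.61, 11.59 and 11.59 in Dp1Yey mice, against 11.22, 11.21, 11.16, 11.10 and 11.13 in control mice. It had the narrowest spread, with Dp1Yey averaging 11.60 ± 0.034 and control 11.16 ± 0.051 (SD over 5 mice each), and the lowest fold of the cluster, 1.35 (95% CI 1.28 to 1.42, adjusted p = 9.07e-05, limma).

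The order of single mice was shared in part over the genes. Dp1Yey replicate 1 was the highest and Dp1Yey replicate 2 the lowest Dp1Yey mouse for all 4 genes, and control replicate 1 was the highest control mouse for all 4. Control replicate 4 was the lowest control mouse for Il10rb, Ifnar1 and Ifngr2, and control replicate 2 for Ifnar2, although the same mouse had the second highest control value for Ifngr2 (11.21). Relative to the control mean, the other 92 interval genes above background averaged between 0.24 and 0.29 log2 units in Dp1Yey mice and between -0.021 and 0.021 in control mice.

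Transcripts that follow gene dose would stand at 1.5-fold with 3 copies against 2. The folds given here are of array signals, and how closely these follow transcript number was not tested. Ifnar2 lay over 1.5-fold (adjusted p = 0.0149, limma's moderated error, adjusted over the 96 interval genes above background), and Ifngr2 lay under it (adjusted p = 0.00141). Il10rb (adjusted p = 0.58) and Ifnar1 (adjusted p = 0.948) did not differ detectably from 1.5-fold, and their 95% intervals hold values from 1.39 to 1.73 and from 1.40 to 1.597. Of the 96 genes 1.04% (Ifnar2 alone) were called over and 67.7% under 1.5-fold. By fold, Ifnar2 ranked 1, Il10rb 5, Ifnar1 9 and Ifngr2 37 of these 96 genes. When the array's interquartile range entered the fit as a covariate, Ifnar2 was still called higher (log2 difference 0.78, adjusted p = 0.023) but no longer over 1.5-fold (adjusted p = 0.147), and the calls of the other members were kept. For Ifnar2 and Ifngr2 the call against 1.5-fold was kept without any single array (adjusted p 0.00659 to 0.0389 and 0.00109 to 0.00483).

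**Figure D2:**
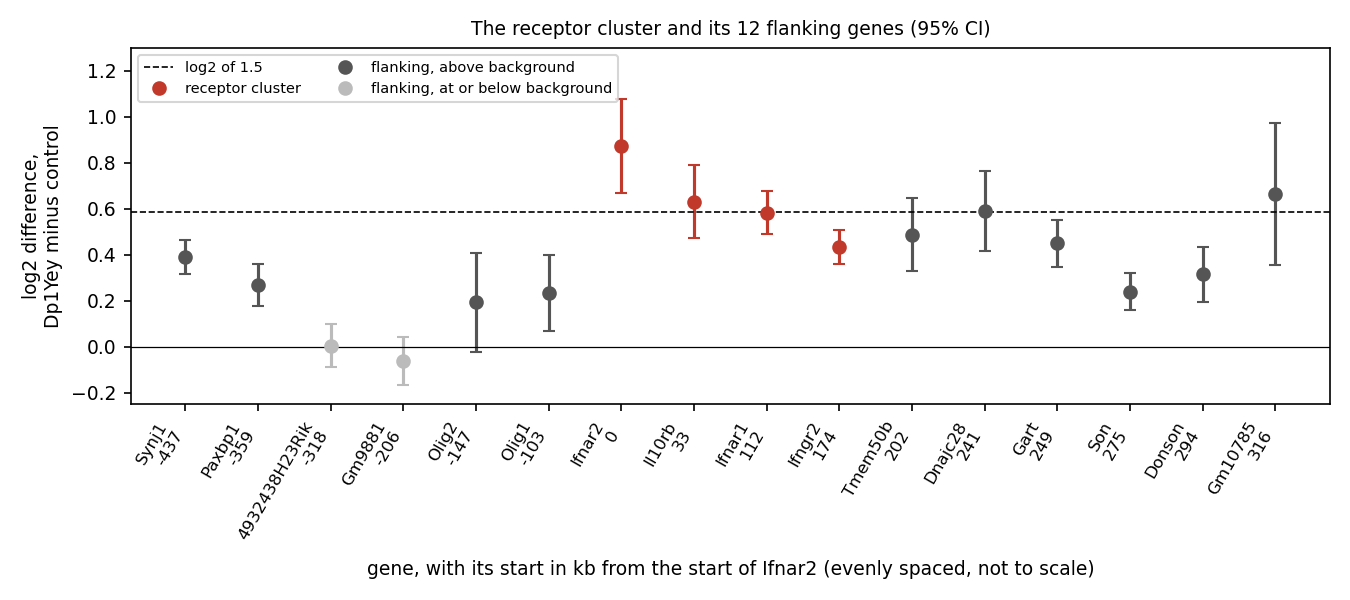
Log2 difference (Dp1Yey minus control) with 95% confidence intervals for the receptor cluster (red) and the 6 measured genes on either side, in order along Mmu16, with grey for genes at or below background and a dashed line at log2 of 1.5. Ifnar2 stands above the line at 0.87 and Ifngr2 below it at 0.43, and among the flanking genes Dnajc28 stands at 0.59 and Son at 0.24.

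The flanking genes were in 3 copies too. Of the 6 measured genes on each side, 7 of 12 were called higher and 0 lower. Their median log2 difference, with genes at or below background included, was 0.29, beside 0.13 for all 143 interval genes. It was 0.61 for the receptor genes, which were all above background. The 96 interval genes above background had a median of 0.32, and 61.5% of them were called higher. On the proximal side Synj1, a synaptic phosphatase, rose by 0.39 log2 units (95% CI 0.32 to 0.46) and Paxbp1 by 0.27 (0.18 to 0.36). The oligodendrocyte transcription factor genes Olig1 and Olig2, next to Ifnar2, stood at 0.23 (0.069 to 0.40) and 0.19 (-0.021 to 0.41) without passing. 4932438H23Rik and Gm9881 were at or below background, at 0.0042 and -0.062.

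On the distal side Tmem50b, next to Ifngr2, rose by 0.49 (0.33 to 0.65), Dnajc28 by 0.59 (0.42 to 0.76) and Gart, an enzyme of purine synthesis, by 0.45 (0.35 to 0.55). The splicing cofactor gene Son rose by 0.24 (0.16 to 0.32) and Donson, a replication factor, by 0.31 (0.19 to 0.44). Gm10785 stood at 0.66 (0.36 to 0.97) without passing (adjusted p = 0.0549). Of the 10 flanking genes above background, 7 were called under 1.5-fold, and Tmem50b, Dnajc28 and Gm10785 were not. In the covariate fit the calls of Paxbp1, Tmem50b, Dnajc28, Son and Donson were lost (adjusted p 0.0979 to 0.298), at log2 differences of 0.24, 0.40, 0.49, 0.19 and 0.27. Donson also lost its call when Dp1Yey mouse 1 (0.0513) or 3 (0.0816) or control mouse 4 (0.0677) was left out, and without controls 1 and 2 both Donson (0.0674) and Son (0.0544) lost theirs. Gm10785 passed when control mouse 3 (0.0419) or 4 (0.0203) was left out, with median centring (0.0376), with array weights (0.045) and on genes above background alone (0.0387).

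Whether neighbouring receptor genes changed by different amounts was asked of each mouse, as the log2 difference between 2 genes on the same array, and compared between the groups by an exact permutation test, two-sided, that used every assignment of the mice to groups of 5 (smallest p 0.00794, adjusted over 10 pairs). Ifnar2 rose more than Ifnar1, its partner in the type I interferon receptor, by a ratio of folds of 1.22 (log2 0.29, SE 0.095, p = 0.00794, adjusted p = 0.0132, exact permutation test). With the control mean of that pair set to 0, Dp1Yey mice spanned 0.25 to 0.34 and control mice -0.36 to 0.16. The lowest of these was control replicate 2, which stood apart for Ifnar2. Without single arrays the difference was 0.20 to 0.33 and still passed (adjusted p 0.0113 to 0.0397, exact permutation test).

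Ifnar2 also rose more than Ifngr2 (log2 0.44, SE 0.12, adjusted p = 0.0132), as did Ifnar1 (0.15, SE 0.034, adjusted p = 0.0132) and Il10rb (0.20, SE 0.069, adjusted p = 0.034, exact permutation test). Between Il10rb and Ifngr2 the groups overlapped, and without any 1 of the Dp1Yey mice the adjusted p was 0.0794 to 0.102. Ifnar2 and Il10rb differed by 0.24 (SE 0.10, adjusted p = 0.0617) and Ifnar1 and Il10rb by -0.048 (SE 0.065, adjusted p = 0.484), without passing. The difference between Ifnar2 and Il10rb passed without control replicate 4 (0.30, adjusted p = 0.0227) or control replicate 5 (0.29, adjusted p = 0.0397), and fell to 0.13 without controls 1 and 2 (adjusted p = 0.179).

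**Figure D3:**
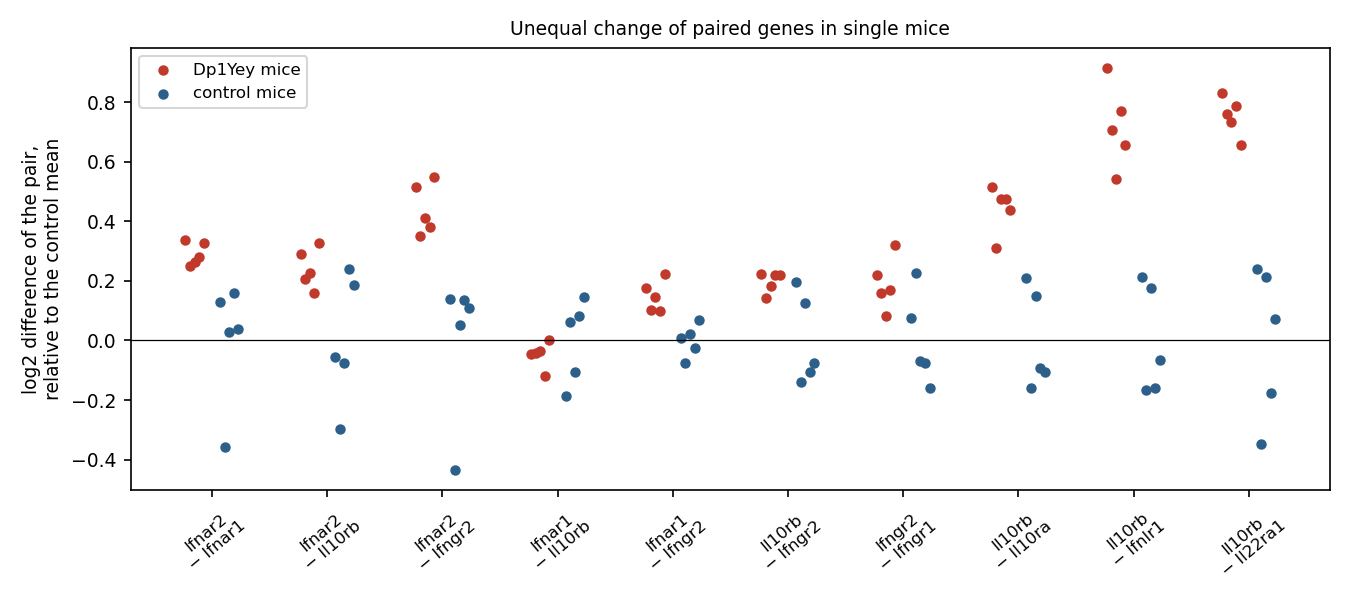
Log2 difference between the genes of each pair in single mice, set to 0 at the control mean, with Dp1Yey mice in red to the left and control mice in blue to the right. All Dp1Yey mice lie above all control mice for Ifnar2 minus Ifnar1 (0.25 to 0.34 against -0.36 to 0.16) and for Il10rb minus each of Il10ra, Ifnlr1 and Il22ra1, and the groups overlap for Ifnar1 minus Il10rb.

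The partner chains encoded outside the interval are in 2 copies. Of the 8 other class II receptor chains, 1 was called higher and 0 lower, against 0.687% and 0.11% of all genes. Their median log2 difference was -0.037, beside -0.015 over all genes. The chain called was Il10ra, the ligand-binding partner of Il10rb. Its values were 6.48, 6.51, 6.45, 6.46 and 6.5 in Dp1Yey mice, against 6.33, 6.36, 6.27, 6.22 and 6.29 in control mice, and the groups did not overlap. Its log2 rise was 0.19 (95% CI 0.11 to 0.26, adjusted p = 0.0278, limma). That call was lost without any 1 of the Dp1Yey mice or without control replicate 4 (adjusted p 0.0562 to 0.0806, log2 difference 0.17 to 0.20), with a trend and robust prior (0.05) and once the interquartile range was a covariate (0.075, log2 difference 0.22). Il10ra is a gene of microglia in brain. The summed microglial marker signal given above was higher in Dp1Yey mice too, although the mean log2 values of those markers overlapped. The part of microglia in this rise was not tested.

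Ifngr1, the ligand-binding partner of Ifngr2, gave 8.93, 8.90, 9.04, 8.93 and 8.78 in Dp1Yey mice, against 8.65, 8.50, 8.73, 8.69 and 8.80 in control mice. The groups overlapped through control replicate 5 alone, and the log2 difference of 0.24 (95% CI 0.11 to 0.37) did not pass (adjusted p = 0.0791, limma). Ifngr2 stood 0.19 above Ifngr1 in log2 change (SE 0.078, adjusted p = 0.0617, exact permutation test), a difference that passed without control replicate 2 (0.25, adjusted p = 0.0113). Il10rb rose more than Il10ra by 0.44 (SE 0.082), more than Ifnlr1, its partner for lambda interferons, by 0.72 (SE 0.10), and more than Il22ra1, its partner for interleukin 22, by 0.75 (SE 0.12; adjusted p = 0.0132 for each, exact permutation test).

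Ifnlr1 itself stood at -0.087 (-0.21 to 0.034) and Il22ra1 at -0.12 (-0.28 to 0.032), both close to background, and Il22ra1 turned to 0.055 with the interquartile range as a covariate. Il20rb, a chain of receptors for interleukins 19, 20 and 24, stood at -0.16 (-0.26 to -0.058, adjusted p = 0.118). F3, the tissue factor of blood clotting, which shares the receptor fold, stood at 0.23 (0.033 to 0.44, adjusted p = 0.203). Il22ra2, a soluble decoy that binds interleukin 22, and Il20ra were at or below background, at -0.047 and -0.028.

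**Figure D4:**
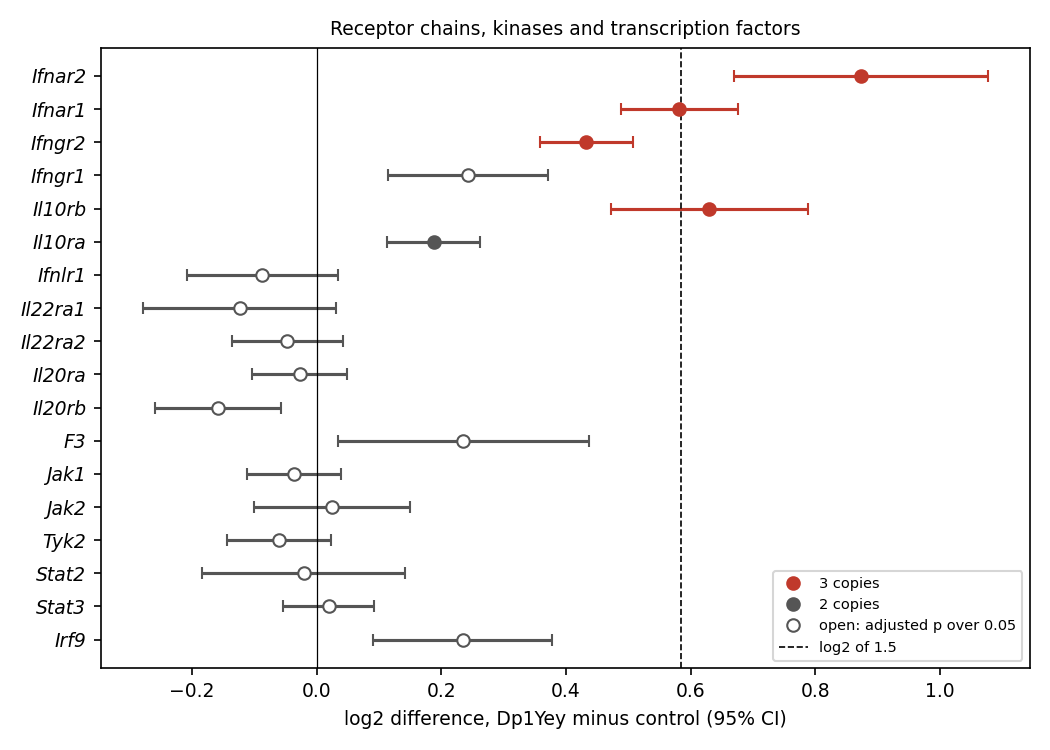
Log2 difference (Dp1Yey minus control) with 95% confidence intervals for the class II receptor chains and for the kinases and transcription factors they signal through, with genes in 3 copies in red, genes in 2 copies in grey and open symbols for an adjusted p over 0.05. Ifnar2 stands at 0.87 and Ifnar1 at 0.58, Il10rb at 0.63 beside Il10ra at 0.19, and Ifngr2 at 0.43 beside Ifngr1 at 0.24.

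Inside the cell, the kinases and transcription factors of the pathway gave 0 calls among 6 measured genes, with 1 higher and 0 lower when an unadjusted p under 0.05 was asked, and the rank statistic called 0 as well. Over all genes that unadjusted threshold took 8.75% higher and 10.8% lower, and the rank statistic 2.46% higher and 0.993% lower. Jak1, which IFNAR2, IFNGR1 and IL10RA hold, stood at -0.036 (95% CI -0.11 to 0.039). Tyk2, which IFNAR1 and IL10RB hold, stood at -0.061 (-0.14 to 0.023) and Jak2, the kinase of IFNGR2, at 0.025 (-0.10 to 0.15). Stat2 stood at -0.021 (-0.18 to 0.14) and Stat3, the main factor of interleukin 10 signalling, at 0.019 (-0.054 to 0.093). The sign turned with at least 1 other setting for Jak1, Jak2, Stat2 and Stat3. Irf9, a DNA-binding partner of STAT2, stood at 0.23 (0.091 to 0.38, adjusted p = 0.109), and Dp1Yey replicate 5 lay apart from the other Dp1Yey mice at 7.28.

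Of the 26 ligand genes listed, 20 were measured, 10 of these at or below background. Limma called 0, but 7 ligands were lower and 0 higher without the adjustment (p under 0.05). Over all genes that threshold took 10.8% lower and 8.75% higher. The rank statistic took 1 ligand lower and 0 higher, against 0.993% and 2.46% of all genes. The mean of the olfactory receptor genes was also lower in Dp1Yey arrays (4.77 to 4.79) than in control arrays (4.80 to 4.86). Its part in the ligand values was not tested. Only Il10 had a mean above control (0.027, 95% CI -0.064 to 0.12, at or below background). The interferon alpha genes resemble each other closely in sequence, so their probe sets may not tell them apart. The smallest p-values belonged to Ifna16 (-0.19), Ifnz (-0.16) and Ifnab (-0.23), with adjusted p of 0.129, 0.134 and 0.148. Ifnb1, the main interferon made by cells of the brain, stood at -0.0087 (-0.091 to 0.073) and Ifng at -0.037 (-0.12 to 0.045), both named after their values were seen.

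Among 10 inhibitors of the pathway and factors of receptor turnover, 0 were called by limma. Without the adjustment (p under 0.05) 3 were higher and 1 lower, against 8.75% and 10.8% of all genes. The rank statistic took 1 in each direction, against 2.46% of all genes higher and 0.993% lower. Socs3, an inhibitor that STAT3 induces, stood at -0.26 (-0.38 to -0.14, adjusted p = 0.0564), and it passed without control replicate 3 (0.0166, log2 difference -0.31) and on genes above background alone (0.0488). Ptpn2, a phosphatase of JAK kinases, stood at 0.14 (adjusted p = 0.0943) and Prkd2, a kinase that marks IFNAR1 for removal, at 0.20 (adjusted p = 0.135).

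Genes that the receptors switch on were described by 3 lists. Of 28 type I interferon targets 26 were measured, and 2 were called higher and 0 lower, against 0.687% and 0.11% of all genes. Their median log2 difference was 0.12, beside -0.015 over all genes. A mean above control was seen in 23 of the 26, against 8393 of all 19938 genes. Without the adjustment (p under 0.05) 13 were higher and 1 was lower, against 8.75% and 10.8% of all genes. The rank statistic took 8 higher and 0 lower, against 2.46% and 0.993%. In 4 all Dp1Yey values lay above all control values, against 2.4% of all genes. The genes called were Trim30a, which rose by 0.27 (0.16 to 0.38, adjusted p = 0.0335), and Samd9l, at or below background, which rose by 0.24 (0.13 to 0.34, adjusted p = 0.0455). The calls were lost without most single arrays: Trim30a when any of Dp1Yey mice 2 to 5, or control mouse 1, 3 or 4, was left out (0.05 to 0.0966), in the covariate fit (0.156) and without controls 1 and 2 (0.0856), and Samd9l for any of the 10 arrays left out (0.0576 to 0.126) and without controls 1 and 2 (0.073). Ifit3, an antiviral protein gene, stood at 0.61 (0.31 to 0.92) without passing (adjusted p = 0.0623), and passed when Dp1Yey mouse 2 was left out (0.0464), with median centring (0.0311), with array weights (0.0457) and on genes above background alone (0.0488). The Mx1 and Mx2 targets lie in the duplication themselves and were at or below background, at 0.010 and 0.0073. The higher summed signal of the microglial markers (4627 to 4927 in Dp1Yey, 4096 to 4625 in control mice) stood beside the values of both interferon target lists, and its part in them was not tested.

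Of 25 interferon gamma targets 19 were measured, 13 of them above control (8393 of all 19938 genes were). Their median was 0.048, beside -0.015 over all genes. Limma called 1 higher and 0 lower, against 0.687% and 0.11% of all genes. Without the adjustment 4 were higher and 2 lower, against 8.75% and 10.8% of all genes. The rank statistic took 5 higher and 1 lower, against 2.46% and 0.993%. Irgm1, an immunity-related GTPase, rose by 0.40 (0.26 to 0.54, adjusted p = 0.0166), a call lost when Dp1Yey mouse 1 (0.0513) or 3 (0.0558) or control mouse 4 (0.0557) was left out and in the fit with that covariate (0.254, log2 difference 0.31). Gbp3, of the guanylate-binding proteins, stood at 0.25 (adjusted p = 0.0564, passing when Dp1Yey mouse 1 or control mouse 3 was left out, at 0.0377 and 0.0428, and in 4 other settings at 0.0322 to 0.049) and Serping1, the complement C1 inhibitor, at 0.52 (adjusted p = 0.0837).

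The 6 interleukin 10 targets, known from macrophages, had a median of -0.097, and both limma and the rank statistic called 0. Without the adjustment (p under 0.05) 1 was higher and 3 were lower, against 8.75% and 10.8% of all genes. In 4 of the 6 all Dp1Yey values lay below all control values, against 2.46% of all genes. Il1rn, 1 of these 4, was at or below background, at -0.043 (-0.10 to 0.017). The olfactory receptor mean given above was also lower in Dp1Yey arrays, and its part in these values was not tested. Sbno2 stood at -0.15 (-0.22 to -0.081, adjusted p = 0.0544), Bcl3 at -0.21 (-0.32 to -0.090, adjusted p = 0.0939) and Il4ra at -0.17 (-0.28 to -0.057, adjusted p = 0.131). Sbno2 passed with array weights (0.0332) and Bcl3 when control mouse 3 was left out (0.0488).

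**Figure D5:**
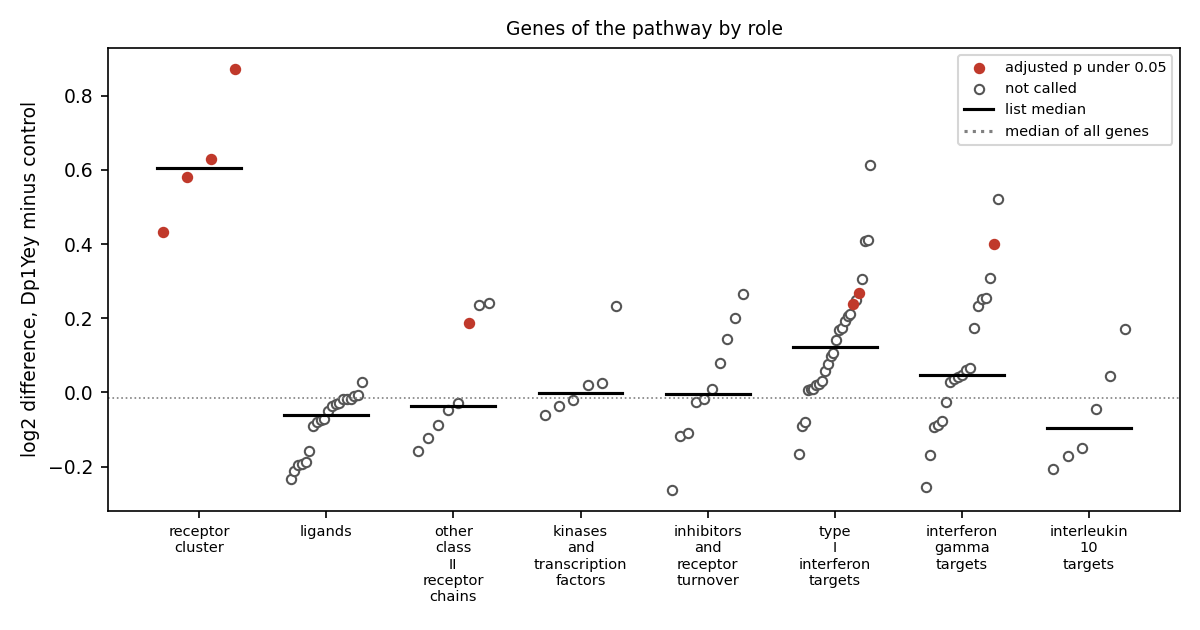
Log2 difference (Dp1Yey minus control) of each measured gene by its role, with red points for an adjusted p under 0.05, a bar at the median of each list and a dotted line at the median of all genes (-0.015). The receptor cluster has a median of 0.61, the ligands -0.061, the type I interferon targets 0.12 and the interleukin 10 targets -0.097.

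The genes whose profile was most like each receptor gene were found as the smallest root mean square distance over the 10 arrays, after each gene was set to 0 at its control mean, among genes above background other than the 4 members. For Ifngr2 these were Ltn1 (distance 0.040 log2 units), Get1 (0.046) and Synj1 (0.050), all in 3 copies. For Ifnar1 they were N6amt1 (0.076), Cryzl1 (0.078) and Rwdd2b (0.081), and for Il10rb Rbm11 (0.061), Rwdd2b (0.11) and Mrpl39 (0.13), again all of the interval. Ifnar2 had no such gene as close: Ly96, encoding a partner of the lipopolysaccharide receptor on another chromosome, lay at 0.218, followed by Rbm11 (0.22) and Vps26c (0.227). The distance is not scaled and includes the group difference, so genes with a like rise lie close by construction. By fold, Ifnar2 ranked 1 of the 96 interval genes above background. Among the members, Ifnar1 and Il10rb were closest to each other at 0.098, Ifnar2 lay nearest to Il10rb at 0.224, and Ifnar2 and Ifngr2 farthest apart at 0.352. Ly96 stood at 8.49, 8.47, 8.31, 8.44 and 8.32 in Dp1Yey mice, against 7.92, 7.33, 7.94, 7.68 and 8.03 in control mice. Control replicate 2 was its lowest value, as for Ifnar2. Ly96 rose by 0.63 (adjusted p = 0.0237, limma), and lost that call when any of Dp1Yey mice 1 to 4 or control mouse 4 was left out (0.0544 to 0.0711) and in the covariate fit (0.246, log2 difference 0.38).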

How the data were processed

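Hippocampal RNA of 5 Dp1Yey and 5 control mice was measured on 1-colour arrays. The authors deposited log2 values made by RMA, which corrects the background, quantile normalises the arrays and summarises each probe set. The submitters' processing notes list RMA and limma. No source used here states which arrays entered 1 normalisation. Arrays carry no depth, so precision is limited by their number. Of 35556 probe sets, 21789 had 1 gene symbol, 1621 several and 12146 none listed. Each gene took its probe set of highest mean, which left 19938 genes, 19852 of them matched to RefSeq (GRCm38.p6). Groups came from the sample titles. Limma 3.58.1 (R 4.3.3, lmFit and eBayes) was run with no factor but group. P-values were two-sided, and the Benjamini-Hochberg adjustment covered every gene, at a threshold of 0.05. For dose, the difference from log2 of 1.5 was divided by the same moderated error. The code was tested on simulated data.

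The members, gene lists, pairs, alternatives and rule for named genes were chosen with earlier results of these data known. The rule took the members, all class II receptor chains, the measured kinases and transcription factors, the 3 genes of smallest p of each other list, 6 flanking genes on each side and the 3 most alike genes per member. The rank statistic, a rewritten form of the study's method, ranked fold changes over 25 pairs of arrays with the outer 0.25 of ranks trimmed at both ends. The mean rank of each gene was turned into a probability on a normal curve with the mean and SD of these mean ranks over all genes. A probability below 0.025 or above 0.975 made a call. Alternatives changed the normalisation, low-value filter, probe set choice, variance prior, weights, covariate, replicate block and the arrays used. Limma p-values weigh a group difference against the spread between these mice, moderated over all genes. Permutation p-values set it against every assignment of the mice to the groups.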

Additional observations from a re-analysis of the deposited data

Results flagged for a closer look

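In 54 named genes the highest and lowest mouse of each group of 5 were compared with the rest of the group (Dixon's criterion, 0.71), and 5 values in 108 groups stood apart, where chance gives about 1 in 20. Ifnar2 in control replicate 2 was at 8.66, with the other control mice at 9.09 to 9.24. 4932438H23Rik in the same control mouse was at 5.33, with the others at 5.14 to 5.18. Vps26c in control replicate 5 was at 8.93, with the others at 8.62 to 8.67. Irf9 in Dp1Yey replicate 5 was at 7.28, with the others at 6.91 to 7.02. Ifna16 in Dp1Yey replicate 1 was at 5.39, with the others at 5.24 to 5.27.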

How the results depend on the processing

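All 4 receptor genes stayed called higher in every setting run, the rank statistic among them, with log2 differences without single arrays of 0.78 to 0.92 for Ifnar2, 0.59 to 0.69 for Il10rb, 0.56 to 0.61 for Ifnar1 and 0.42 to 0.45 for Ifngr2. Against 1.5-fold (log2 difference from it), Ifnar2 fell to 0.19 with the interquartile range covariate and no longer passed. Ifnar1 sat at the line and turned to 0.044 with median centring, 0.00957 without controls 1 and 2, 0.028 with the olfactory level subtracted (an alternative chosen after seeing the data), and -0.024 to 0.021 without single arrays. Same-numbered mice deviated together above a correlation of 0.1 in 1 of 5 number pairs (-0.327 to 0.218). This gave no sign of pairing by number. Paired mice need not deviate together over all genes above background, so the check cannot exclude pairing. A replicate block gave the pair differences 0.29, 0.44, 0.15, 0.20, 0.44, 0.72 and 0.75, each at an adjusted p of 0.0893, since 5 sign flips cannot give a p under 0.0625. With the block the limma calls of Paxbp1 (0.0702), Son (0.0525), Donson (0.108), Ly96 (0.0702), Samd9l (0.123) and Il10ra (0.08) were lost (adjusted p). Ifngr2 minus Ifngr1 passed without controls 1 and 2 (0.29). Pair differences without single arrays were 0.20 to 0.33 for Ifnar2 minus Ifnar1, 0.33 to 0.48 for Ifnar2 minus Ifngr2 and 0.17 to 0.30 for Ifnar2 minus Il10rb. They were 0.16 to 0.25 for Il10rb minus Ifngr2 and 0.15 to 0.25 for Ifngr2 minus Ifngr1.

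Calls over all genes, 137 higher and 22 lower, became 155 and 46 with quantile normalisation, 294 and 14 with median centring, 159 and 36 with a trend and robust prior, 191 and 46 with array weights, 90 and 4 with a replicate block, 44 and 2 with the covariate, 111 and 6 without controls 1 and 2, and 65 to 166 and 3 to 70 without single arrays. Among these single omissions, the fewest higher calls came without Dp1Yey replicate 3 (65) and control replicate 4 (68), and the most lower calls without control replicate 3 (70). The other receptor chains went to 0 calls with the trend and robust prior, a replicate block or the covariate. Type I interferon targets had 6 calls with median centring and 1 with a replicate block, the covariate or without controls 1 and 2. Interferon gamma targets had 2 with quantile normalisation, median centring or on genes above background and 0 with the covariate. Inhibitors gained 1 lower on genes above background, and interleukin 10 targets 1 lower with array weights. Without single arrays these counts were 0 to 1 for the chains, 0 to 2 for each interferon list, and 0 to 1 lower for inhibitors and interleukin 10 targets.

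Signs turned for genes near 0: Il22ra1 (0.055, covariate), Il22ra2 (3.2e-05, without controls 1 and 2), Il20ra (0.0024 quantile, 0.019 centring, 0.015 covariate, 0.0064 without controls 1 and 2), Jak1 (0.010, centring), Jak2 (-0.0072 quantile, -0.093 covariate, -0.022 without controls 1 and 2, -0.0057 to 0.074 without single arrays), Stat2 (0.026 centring, 0.026 array weights, 0.050 covariate, 0.043 without controls 1 and 2, -0.070 to 0.050 without single arrays), Stat3 (-0.0072, quantile) and 4932438H23Rik (-0.0084 to 0.037 without single arrays). No cause was tested.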
